A study of Mus musculus with 2 samples.

Results

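The 43 genes described here handle fatty acids in the cell: they take them up, carry and activate them, burn them in mitochondria, build and modify them, and use the ketone bodies made from them. They were chosen by name, as a list of genes of fatty acid uptake, synthesis and oxidation, and each was read from the probe sets that the platform annotation assigns to it alone. A probe set is the group of probes for 1 stretch of sequence on an exon-level microarray. The list holds 43 of the 22296 gene symbols on the array and 935 of its 318760 probe sets with 1 symbol.

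Free fatty acids enter a cell partly through membrane proteins such as CD36, are bound by small carriers, and are joined to coenzyme A before any further use. Carnitine acyltransferases then move the acyl groups into mitochondria, where beta-oxidation shortens them step by step, while acetyl-CoA carboxylase and fatty acid synthase run the opposite route in the cytosol. Malonyl-CoA, the first product of synthesis, inhibits the entry of acyl groups into mitochondria, and in the hypothalamus both malonyl-CoA and long-chain acyl-CoA have been studied as signals of energy state.

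The study compared FoxO1 KO with FoxO1 heterozygous KO, the genotype that serves as its control, so both arrays come from mice that carry a FoxO1 knockout allele. FoxO1, a forkhead transcription factor, leaves the nucleus when insulin signals through Akt. The cells were hypothalamic neurons that express agouti-related peptide (AgRP neurons), sorted by FACS from mice of mixed genetic background that were fed freely and matched with littermates for age and sex. The labels do not give the driver of the knockout, the age of the mice or how many mice stand behind an array. Each genotype had 1 array without replicates. No test was therefore possible, the spread between mice is unknown, and every difference is between 2 arrays.

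Values are on the log2 scale, and differences are KO minus heterozygous KO. A gene's level on an array is the median of its bright probe sets, those with a mean over both arrays at or above a floor of 5.86, the median over all probe sets. Its difference is the median of the same probe sets' differences, and the SD beside it is over probe sets, which measures their disagreement and not the spread between animals. The floor was passed by 725 of the 935 probe sets (77.5%, against 67.8% of all probe sets with 1 symbol). All 43 genes had at least 3 bright probe sets, the minimum for evaluation, with a median of 14 and a range from 3 to 88. A difference of 1 or more in size (2-fold) counted as higher or lower if at least 75% of the gene's bright probe sets went that way. Because a probe set can pass the floor through 1 bright array, some differences are also given over all probe sets of the gene. This was done for each of the 43 genes past the 2-fold rule.

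The targeted gene Foxo1 had a level of 7.46 in KO cells and 7.98 in heterozygous cells, a difference of -0.48 (SD 0.53), with 8 of 8 bright probe sets lower. Over all 9 probe sets the difference was -0.33 (SD 0.73), with 8 lower and 1 higher. The labels do not say which probe sets the deletion removes. The defining peptides of the sorted cells were bright on both arrays, Agrp at 12.44 in KO and 11.97 in heterozygous cells and Npy at 12.19 in KO and 12.31 in heterozygous cells. Markers of oligodendrocytes were lower on the KO array. All 11 evaluated mature oligodendrocyte markers were below 0, with a summed level on the linear scale of 1836 in KO and 4769 in heterozygous cells, and 6 passed the 2-fold rule (Ugt8a at -2.98, Mag at -2.12, Cnp at -2.10, Trf at -1.52, Mobp at -1.46 and Mbp at -1.11), with Ermn highest at -0.42. Over all evaluated genes 65.2% were below 0 and 1.12% were lower by that rule. With dim probe sets included 5 of the 11 passed, beside 0.624% of all 20188 genes evaluated that way. Ugt8a then stood at -2.20, and Mbp, at -1.05 with 17 of 23 probe sets lower, did not pass. All 10 oligodendrocyte precursor markers were below 0 too, with a summed level of 1563 in KO and 2937 in heterozygous cells. Of these, Pdgfra at -2.41, Enpp6 at -1.78 and Lhfpl3 at -1.59 passed the rule, while Cspg5 was highest at -0.04. The same 3 passed with dim probe sets included. The share lower over all evaluated genes was 1.12% with the floor and 0.624% without it. In such bulk samples, fewer cells of a type and less RNA per cell cannot be told apart.

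Most of the 43 genes differed little, as did genes in general. The median size of the difference was 0.17 in the list and 0.22 over all evaluated genes. The difference was under 0.5 in size for 30 of them, and the median over the list was -0.12, beside -0.11 over all 16639 evaluated genes. Of the 43, 30 lay below 0 and 13 above, or 69.8% below, beside 65.2% of all evaluated genes. Higher on the KO array by the 2-fold rule were 2 genes, Cd36 and Dbi, or 4.65%, beside 1.13% of all evaluated genes. Lower were 2 genes, Acsl5 and Elovl7, again 4.65%, beside 1.12% of all evaluated genes. With differences centred on the median gene, the split over all evaluated genes was 270 higher and 127 lower in place of 188 and 186, and the same counts of 2 and 2 held for the list. With dim probe sets included, none of the 43 passed in either direction, beside 0.763% higher and 0.624% lower among 20188 genes.

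**Figure D1:**
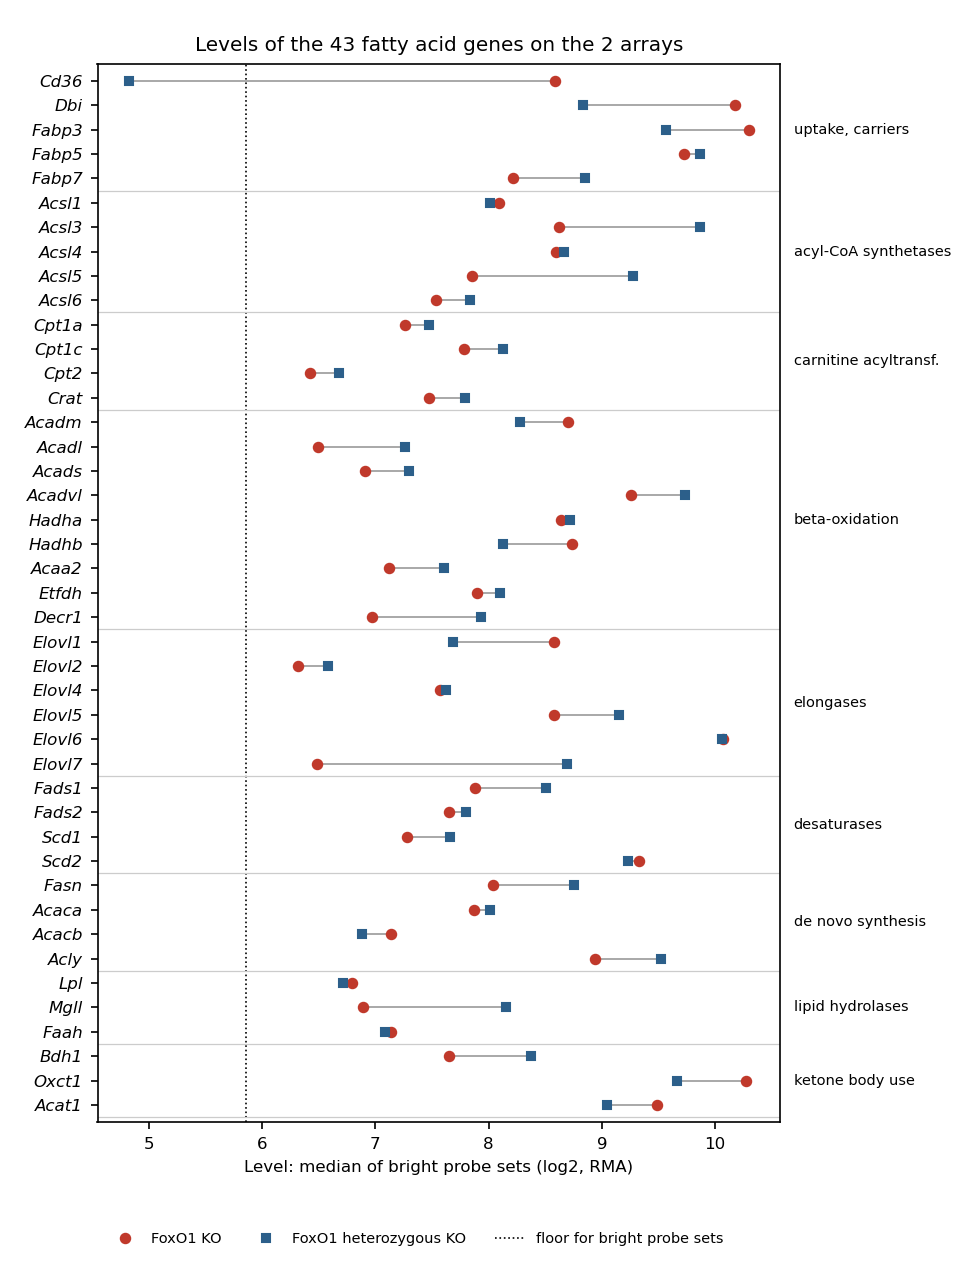
Level of each of the 43 genes (x axis, log2, median of bright probe sets) on the FoxO1 KO array (circles) and the FoxO1 heterozygous KO array (squares), by role, with the floor of 5.86 as a dotted line. Cd36 at 8.59 in KO and 4.82 in heterozygous cells and Elovl7 at 6.48 in KO and 8.69 in heterozygous cells have the widest gaps.

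At 1.5-fold with the same agreement of probe sets, 3 genes were higher (6.98%, beside 3.28% of all evaluated genes), Fabp3 joining Cd36 and Dbi. At that size 6 were lower (14.0%, beside 4.9% of all), as Fabp7, Acadvl, Acaa2 and Fads2 joined Acsl5 and Elovl7. With dim probe sets included, 1 gene was higher (2.33%, beside 2.48%) and 4 were lower (9.30%, beside 3.11%). Those were Fabp3 in the first direction and Elovl7, Fabp7, Acadvl and Acaa2 in the second.

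The promoters of members are shown because the deleted protein binds DNA: forkhead factors such as FoxO1 recognise GTAAACA, read as TGTTTAC on the other strand. RefSeq promoter windows of build GRCm38.p6, from 250 bases before to 50 after a gene's start, were found for 34 of the 43 genes, some with several starts, 42 windows in all. The motif, searched on both strands, occurred in 2 of these 42 windows (4.76%) and in 3.65% of all 32851 windows, so its share in the list was close to that of all promoters. The 2 windows belong to Mgll and Elovl6. The GC box GGGCGG, or CCGCCC on the other strand, the site of the general factor Sp1, occurred in 26 of 42 windows (61.9%) and in 35.7% of all, and the median GC content of the 250 bases upstream was 60.2% and 52.4%. The motifs overlapped each other in none of the 42 windows. Shown 5′ to 3′ are the 250 bases before the start of Mgll (chr6:88724162-88724411, plus strand) and Elovl6 (chr3:129532136-129532385, plus strand), which hold the forkhead motif. With them is that of Elovl7 (chr13:108214154-108214403, plus strand), the lowest gene of the list. Capitals mark the forkhead motif and the GC box.
Mgll: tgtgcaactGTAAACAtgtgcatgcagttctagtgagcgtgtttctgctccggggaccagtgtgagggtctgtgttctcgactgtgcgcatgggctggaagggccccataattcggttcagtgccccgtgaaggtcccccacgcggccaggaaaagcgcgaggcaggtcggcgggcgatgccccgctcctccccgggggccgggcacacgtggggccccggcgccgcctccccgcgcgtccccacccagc
Elovl6: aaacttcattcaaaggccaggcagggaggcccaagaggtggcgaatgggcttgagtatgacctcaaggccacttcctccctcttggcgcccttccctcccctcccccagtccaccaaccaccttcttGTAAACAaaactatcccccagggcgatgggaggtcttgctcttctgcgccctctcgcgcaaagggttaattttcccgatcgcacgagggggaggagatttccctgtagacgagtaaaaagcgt
Elovl7: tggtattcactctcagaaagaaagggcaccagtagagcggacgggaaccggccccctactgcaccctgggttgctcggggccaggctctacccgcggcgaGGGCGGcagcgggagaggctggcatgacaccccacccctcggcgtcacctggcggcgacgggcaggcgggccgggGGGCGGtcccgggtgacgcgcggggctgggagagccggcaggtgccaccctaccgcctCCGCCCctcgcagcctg
Counted from the start, the first base of the forkhead motif is at -241 in Mgll and at -123 in Elovl6. The letters shown for Elovl7 hold the GC box 3 times. A match is only a match of letters, and no binding was measured.

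Uptake and carrier genes held the largest higher values. Cd36, the membrane protein that takes up long-chain fatty acids, had bright probe sets at 9.41, 9.29, 7.88 and 5.94 on the KO array and, in the same order, 3.98, 5.64, 4.00 and 6.47 on the heterozygous array. Of these, 3 were between 3.65 and 5.43 higher and 1 was lower by 0.53, so the difference of 3.77 (SD 2.55) comes from 3 probe sets that were under the floor on the heterozygous array. Over all 23 probe sets the median difference was 0.04, since only 4 of them were at least 4-fold higher, the fourth at 7.10 in KO and 4.22 in heterozygous cells. The other 19 differed by -1.17 to 0.49. Cells that commonly express Cd36 include endothelium and macrophages. All 8 evaluated endothelial and pericyte markers were below 0 (Pecam1 highest at -0.05, Cdh5 lowest at -0.77, summed level 864 in KO and 1433 in heterozygous cells). Of 7 evaluated microglia and macrophage markers, 6 were below 0 (Aif1 highest at 0.50, Trem2 lowest at -0.30, summed level 1049 in KO and 1186 in heterozygous cells). Cldn5 at 0.50 and Tmem119 at 0.38 had only 2 bright probe sets each and were not evaluated. With dim probe sets included, 8 of 9 endothelial and pericyte markers and 7 of 8 microglia and macrophage markers were below 0, beside 64.0% of all genes. Cldn5 was then at 0.29, Tmem119 at -0.17 and Aif1 at 0.79. The share below 0 over all evaluated genes was 65.2%. The part of these cells in the Cd36 values was not tested.

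Dbi encodes the acyl-CoA binding protein, which carries activated fatty acids and, under the name diazepam binding inhibitor, gives rise to peptides that act on GABA-A receptors. It was bright on both arrays, with a level of 10.17 in KO and 8.84 in heterozygous cells and a difference of 2.19 (SD 1.34). Of 9 bright probe sets 7 were higher, by 1.19 to 3.40, the brightest at 11.87 in KO and 10.68 in heterozygous cells. The other 2 were slightly lower, at 8.43 in KO and 8.85 in heterozygous cells and at 7.32 in KO and 7.66 in heterozygous cells. No bright Dbi probe set was under the floor on either array, unlike those of Cd36. With the 2 dim probe sets, both lower, the difference was 2.07, and Dbi left the count only because 7 of 11 probe sets is under 75%. Astrocytes and tanycytes are rich in Dbi. Astrocyte markers had a median difference of -0.19 (6 of 9 below 0, Gfap highest at 0.66, Slc1a3 lowest at -0.73). Above 0 with Gfap were Aqp4 at 0.47 and Gja1 at 0.15. The summed level was 2626 in KO and 2912 in heterozygous cells, with Aldoc by far the brightest at 10.30 in KO and 10.63 in heterozygous cells. The median level of the list went the other way, at 7.70 in KO and 7.29 in heterozygous cells. Tanycyte and ependymal markers had a median difference of -0.19 as well (5 of 7 below 0, Tmem212 highest at 0.53, Vim lowest at -0.46). Their summed level was 1790 in KO and 2052 in heterozygous cells, with Vim brightest at 9.39 in KO and 9.83 in heterozygous cells. Their median level was 7.65 in KO and 7.36 in heterozygous cells. The share below 0 over all evaluated genes was 65.2%. The part of these cells in the Dbi value was not tested.

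The fatty acid binding proteins, small carriers named after the tissues where they were found, went different ways. Fabp3, the heart form that is also made in neurons, had a level of 10.30 in KO and 9.57 in heterozygous cells. It was higher in 7 of 7 probe sets, by 0.20 to 1.24, with a difference of 0.64 (SD 0.40). Its dimmer probe sets differed more: the brightest stood at 11.06 in KO and 10.71 in heterozygous cells, the dimmest at 9.61 in KO and 8.37 in heterozygous cells. Fabp7, the brain form of glia and their precursors, was lower in 5 of 5 probe sets, by 0.31 to 1.18. Its level was 8.22 in KO and 8.85 in heterozygous cells, with a difference of -0.63 (SD 0.35). Fabp5, the epidermal form, had a level of 9.73 in KO and 9.86 in heterozygous cells, and 3 probe sets were higher and 4 lower. The difference of Fabp5 was -0.09 and was above 0 under 3 alternatives, at 0.02 with centring on the median gene, 0.04 under a 75th-percentile floor and 0.09 with the mean over probe sets. Over all genes with at least 3 bright probe sets, every probe set was higher in 2.46% and lower in 5.15%. In the list the first held for Fabp3 and the second for Fabp7, Elovl7 and Acaa2.

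**Figure D2:**
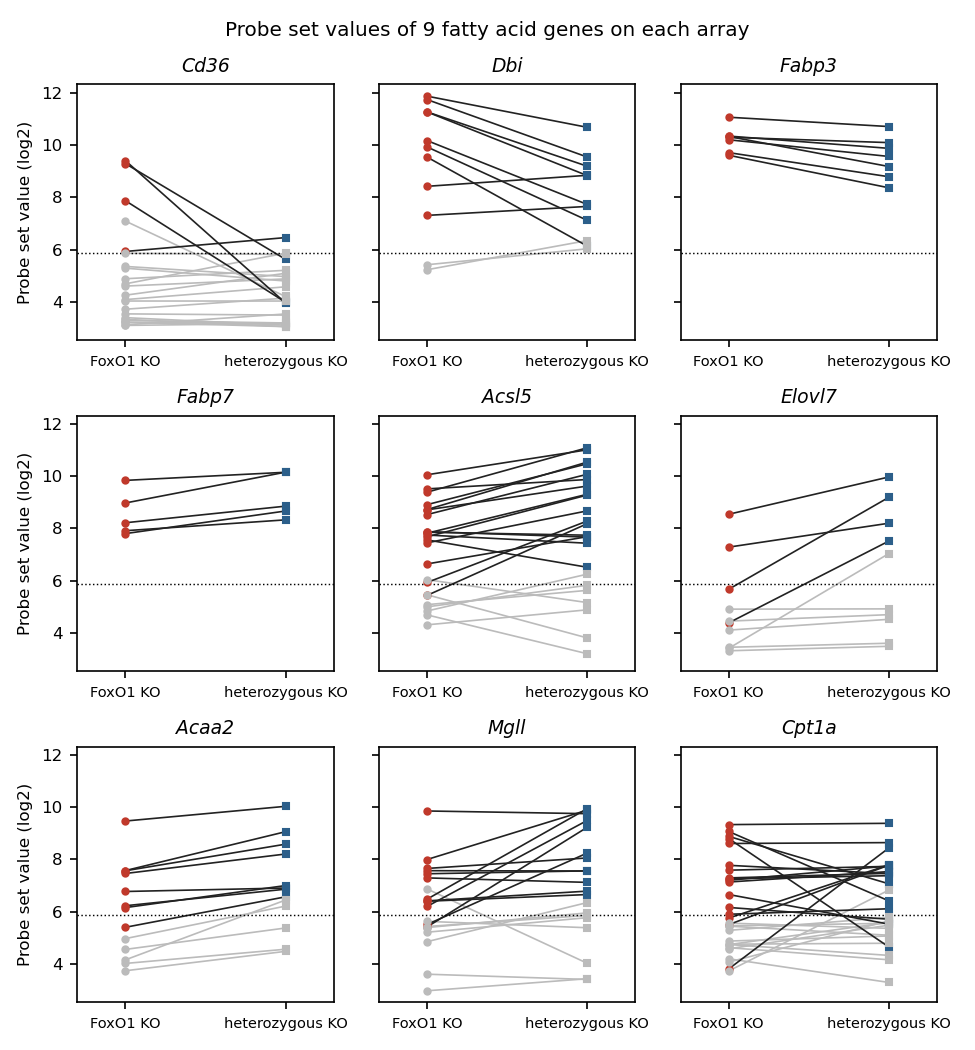
Values of every probe set (y axis, log2) of 9 genes on the FoxO1 KO array (left) and the FoxO1 heterozygous KO array (right), joined by lines, with probe sets under the floor in grey and the floor of 5.86 dotted. All 7 lines of Fabp3 slope down to the right and all 5 of Fabp7 slope up, while Cpt1a and Mgll hold flat and steep lines side by side.

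Acyl-CoA synthetases join fatty acids to coenzyme A. All 5 of the list were below 0, beside 65.2% of all evaluated genes. Acsl6 was above 0 under 2 of the alternatives, at 0.08 with centring on the median gene and at 0.02 with the trend of differences on level removed. Acsl5, a form of mitochondria and the endoplasmic reticulum, had a level of 7.86 in KO and 9.28 in heterozygous cells and a difference of -1.22 (SD 1.01), with 13 of 17 bright probe sets lower. The 10 brightest were all lower, from 10.05 in KO and 11.00 in heterozygous cells to 7.45 in KO and 8.67 in heterozygous cells, and the largest difference was that of a dimmer one, at 5.44 in KO and 8.18 in heterozygous cells. Over all 24 probe sets the difference was -0.93 with 17 lower, which is under the 2-fold size. Acsl3, a form found on lipid droplets, was next at -0.61 (SD 1.47), with a level of 8.62 in KO and 9.87 in heterozygous cells. Its probe sets split: 6 of 19 were at least 4-fold lower, while the 3 brightest differed by only -0.61, -0.48 and -0.30, and 1 was higher by 2.89. Acsl4, which prefers arachidonate, stood at 8.60 in KO and 8.66 in heterozygous cells (-0.17). Acsl1 stood at 8.09 in KO and 8.01 in heterozygous cells (-0.13), and Acsl6, the main brain form, at 7.54 in KO and 7.83 in heterozygous cells (-0.03).

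Carnitine acyltransferases lay slightly below 0 in all 4 cases, beside 65.2% of all evaluated genes, and none passed 1.5-fold. With centring on the median gene, Cpt1a was at -0.0057, Cpt2 at -0.04, Crat at -0.06 and Cpt1c at -0.27. Cpt1a, the malonyl-CoA-sensitive gate to mitochondria, had a level of 7.26 in KO and 7.47 in heterozygous cells and a difference of -0.12. That small median covers the widest spread among those of the 43 genes with over 6 bright probe sets (SD 1.94). At one end was 8.80 in KO and 4.66 in heterozygous cells, and at the other 3.82 in KO and 8.44 in heterozygous cells, while the 2 brightest were equal within 0.05. Cpt1c, the neuronal isoform of the endoplasmic reticulum, was at 7.78 in KO and 8.13 in heterozygous cells (-0.38), with 20 of 24 probe sets lower. Cpt2, the inner-membrane enzyme, was at 6.42 in KO and 6.68 in heterozygous cells (-0.15). Crat, which acts on acetyl groups, was at 7.47 in KO and 7.79 in heterozygous cells (-0.17).

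Among beta-oxidation genes the acyl-CoA dehydrogenases, which take the first step for different chain lengths, did not go one way. Acadvl, for very long chains, was at 9.26 in KO and 9.73 in heterozygous cells, a difference of -0.64 (SD 0.70) with 14 of 18 probe sets lower and the 6 brightest all lower, by 0.35 to 1.03. Acadl, for long chains, was at 6.49 in KO and 7.26 in heterozygous cells (-0.87), but this rests on 3 bright probe sets, 1 of them higher, and over all 12 it was -0.38. Acadm, for medium chains, was at 8.70 in KO and 8.27 in heterozygous cells (0.38), with 11 of 14 higher, and Acads, for short chains, at 6.91 in KO and 7.30 in heterozygous cells (-0.26). Acaa2, a thiolase of the step that closes a cycle, was lower in 8 of 8 bright probe sets and in 13 of 13 with dim ones. Its level was 7.12 in KO and 7.61 in heterozygous cells and its difference -0.79 (SD 0.41), or -0.82 over all probe sets. Hadha and Hadhb, the subunits of the trifunctional protein, had differences of 0.01 and -0.08. Hadhb stood at 8.74 in KO and 8.13 in heterozygous cells, and 9 of its 29 probe sets were at least 2-fold higher against 2 at least 2-fold lower. Its difference was 0.26 over all probe sets and 0.61 with the floor at the 75th percentile. Etfdh, which hands electrons to the respiratory chain, and Decr1, which handles unsaturated chains, were at -0.07 and -0.06, and both were above 0 with centring.

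**Figure D3:**
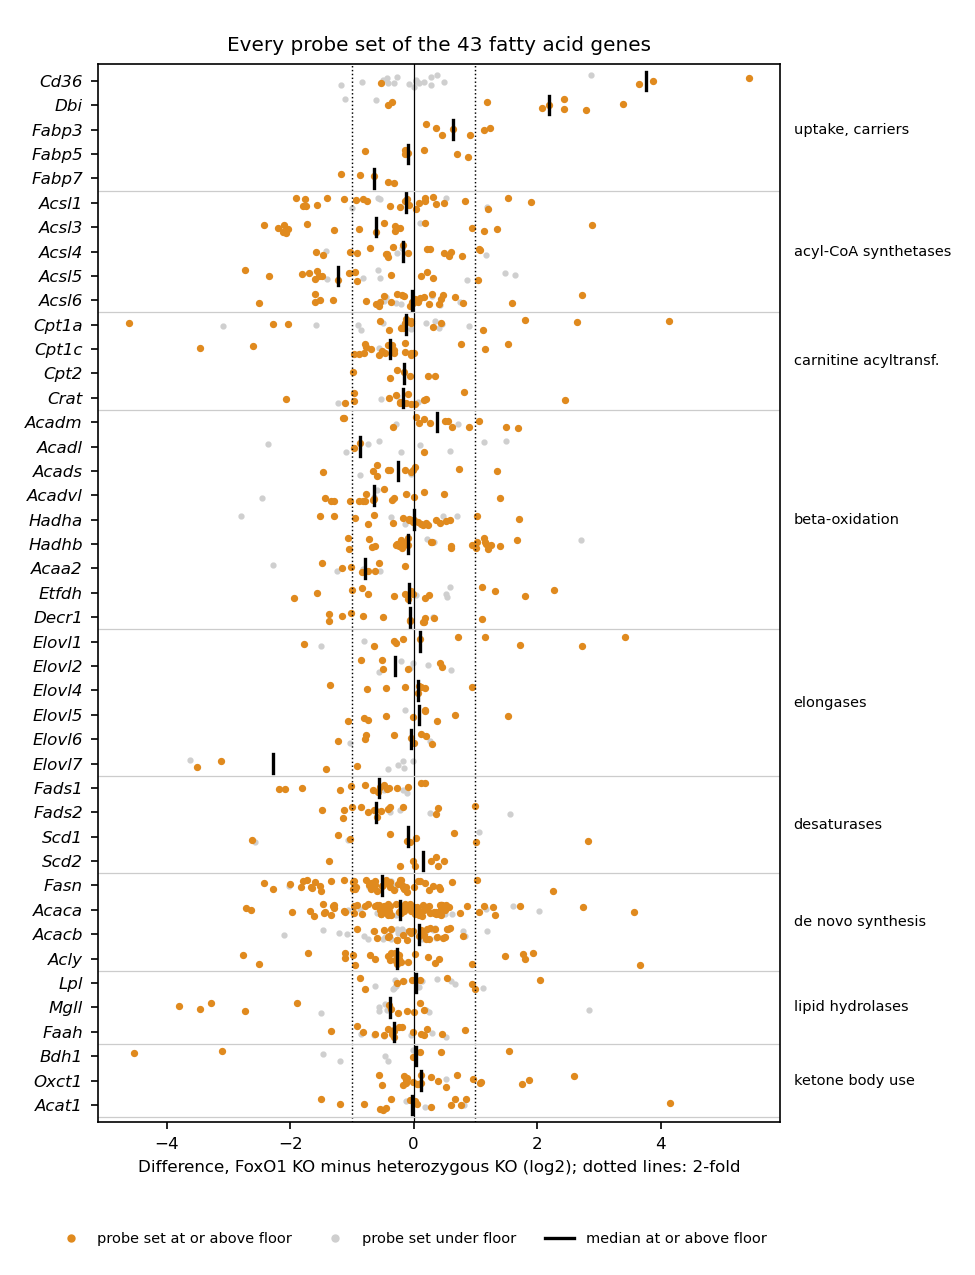
Difference of each of the 935 probe sets (x axis, FoxO1 KO minus heterozygous KO, log2) by gene and role, with bright probe sets in orange, dim ones in grey, the median of bright ones as a black bar and 2-fold as dotted lines. The bars of 39 genes lie inside the dotted lines, while the orange points of many genes reach past them on both sides.

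Elongases lengthen fatty acids, each with its own substrates. Elovl7, an elongase of saturated long chains, was the lowest gene of the list, with a level of 6.48 in KO and 8.69 in heterozygous cells and a difference of -2.27 (SD 1.27). Its 4 bright probe sets were at 8.54, 7.29, 5.68 and 4.40 in KO and, in the same order, 9.97, 8.20, 9.19 and 7.52 in heterozygous cells. Of the 6 dim ones, 1 was at 3.43 in KO and 7.04 in heterozygous cells and the other 5 differed by -0.01 to -0.41, so all 10 were lower and their median was -0.66. Elovl7 had the same sign as the oligodendrocyte markers above, of which all 21 evaluated were below 0, and their part in its value was not tested. The other elongases differed by at most 0.30 as medians over bright probe sets: Elovl1 by 0.10, Elovl2 by -0.30, Elovl4 by 0.07, Elovl5 by 0.09 and Elovl6, which makes stearate from palmitate, by -0.04. Of these 5, only Elovl2 kept its sign under every alternative in which it was evaluated. Elovl1 had 2 of 11 probe sets at least 4-fold higher, the extreme at 9.15 in KO and 5.72 in heterozygous cells, beside the 3 brightest at -0.17, -0.31 and -0.28. A 75th-percentile floor put Elovl1 at 0.72, against 0.61 with the mean over probe sets and -0.17 over all probe sets. Elovl6, with its forkhead motif shown above, was even on both arrays, at 10.07 in KO and 10.06 in heterozygous cells.

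The desaturases put double bonds into fatty acids. Fads1 and Fads2, which act in polyunsaturated fatty acid synthesis, both stood lower on the KO array. Fads1 was at 7.88 in KO and 8.51 in heterozygous cells (-0.56, SD 0.73, 14 of 16 probe sets lower). Fads2 was at 7.65 in KO and 7.80 in heterozygous cells (-0.61, SD 0.64, 13 of 16 lower). Scd1 and Scd2 make monounsaturated fatty acids, Scd2 being the main brain form, and were at -0.08 and 0.16. Scd2 stood at 9.33 in KO and 9.23 in heterozygous cells, with 7 of 8 probe sets within 0.5 of 0.

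Genes of fatty acid synthesis lay a little below 0, apart from Acacb. Fasn, the fatty acid synthase, was at 8.04 in KO and 8.75 in heterozygous cells (-0.51, SD 0.88), with 40 of 51 probe sets lower. Acly, which makes cytosolic acetyl-CoA from citrate, was at 8.94 in KO and 9.52 in heterozygous cells (-0.27, SD 1.31). Its 8 brightest probe sets were all lower by a little, between -0.10 and -0.41, while dimmer ones ran from -2.76 to 3.67. The acetyl-CoA carboxylases Acaca, the cytosolic form, and Acacb, the form at mitochondria, were at -0.21 (51 of 88 lower) and 0.09 (14 of 29 lower). Acacb was at -0.09 with dim probe sets included.

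Of the lipid hydrolases, Mgll, which degrades an endocannabinoid monoacylglycerol, had a level of 6.89 in KO and 8.15 in heterozygous cells. Its difference was -0.39 (SD 1.57), and its probe sets lay in separate ranges: 4 of 12 were at least 4-fold lower and 7 were within 0.5 of 0. The low ones included 6.48 in KO and 9.94 in heterozygous cells and 5.42 in KO and 9.23 in heterozygous cells, while the brightest was at 9.85 in KO and 9.75 in heterozygous cells. With the mean over probe sets in place of the median, Mgll was at -1.33 and passed the 2-fold rule. Its promoter above is 1 of 2 in the list with the forkhead motif. Faah, which degrades anandamide, was at 7.14 in KO and 7.09 in heterozygous cells (-0.31, 13 of 18 lower), and Lpl, the lipoprotein lipase, at 6.79 in KO and 6.72 in heterozygous cells (0.03).

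Genes of ketone body use had medians over bright probe sets close to 0, but all 3 moved with the processing. Acat1 and Bdh1 changed sign, while Oxct1 stayed above 0, from 0.08 to 0.45. Oxct1, the transferase that commits acetoacetate to use, was at 10.27 in KO and 9.66 in heterozygous cells, a difference of 0.12 with 14 of 22 probe sets higher. Its 5 brightest probe sets differed by only -0.16 to -0.01, and the mean over probe sets was 0.45. Acat1, the thiolase that follows, was at 9.49 in KO and 9.05 in heterozygous cells (-0.02). Its difference ran from -0.21 to 0.12 over the alternatives. Bdh1, which oxidises beta-hydroxybutyrate, was at 7.65 in KO and 8.38 in heterozygous cells, yet its difference was 0.05 (SD 2.35), with 3 probe sets higher and 3 lower, the lowest at -3.10 and -4.53. Over all 11 probe sets Bdh1 was at -0.41, with the floor on the brighter array at -0.47, and with the mean over probe sets at -0.92. For 9 of the 43 genes, among them Bdh1, Hadhb, Elovl5 and Acat1, the gap between the 2 levels and the difference had opposite signs, since the medians are taken over probe sets separately. Among these 9 the largest difference was 0.31 in size, while the gap between the levels reached 0.73 in size, in Bdh1.

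**Figure D4:**
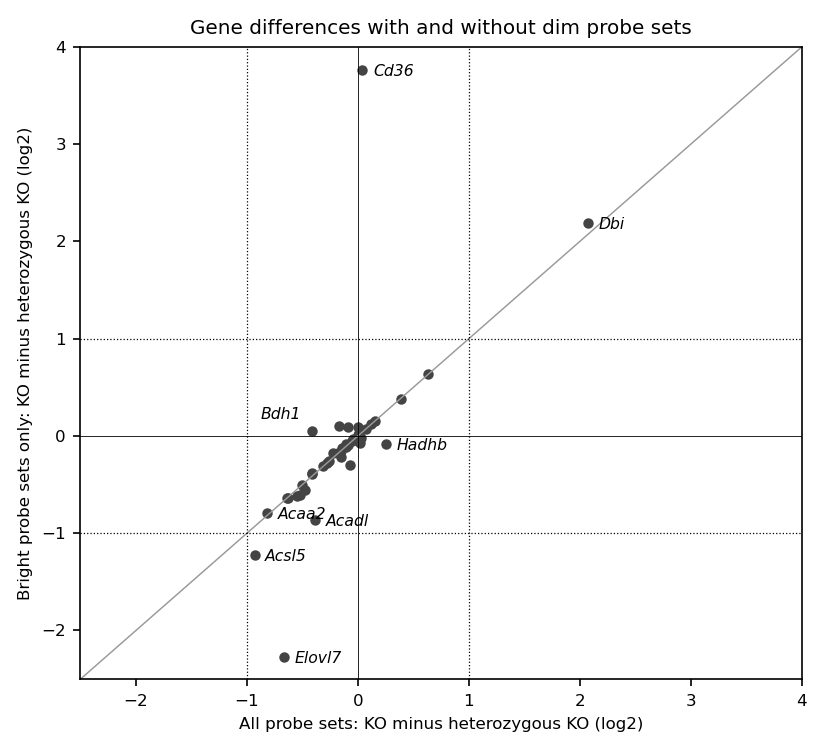
Difference of each of the 43 genes (KO minus heterozygous KO, log2) over bright probe sets (y axis) against that over all its probe sets (x axis), with equality as a grey line and 2-fold as dotted lines. With all probe sets Cd36 lies at 0.04, Elovl7 at -0.66 and Dbi at 2.07, beside 3.77, -2.27 and 2.19 over bright ones.

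Other genes of the same routes were described from 6 lists of 77 genes, 66 of them evaluated. Their median difference was -0.11, the same as over all evaluated genes, and 2 passed the 2-fold rule in each direction (3.03%, beside 1.13% and 1.12%). Hacd3, a dehydratase of fatty acid elongation listed as Ptplad1, was higher in 16 of 16 probe sets, at 9.29 in KO and 8.08 in heterozygous cells, a difference of 1.19 (SD 0.59). Hsd17b10, a mitochondrial hydroxyacyl-CoA dehydrogenase, was higher in 8 of 8 bright probe sets, at 9.63 in KO and 8.49 in heterozygous cells (1.05), and at 0.84 over all probe sets. Hsd17b4, the multifunctional enzyme of peroxisomal beta-oxidation, was lower in 27 of 27 probe sets, at 8.11 in KO and 9.35 in heterozygous cells (-1.08, SD 0.98). Eci1, an enoyl-CoA isomerase listed as Dci, was at -1.20 over 4 bright probe sets, 3 of them lower, and at -0.49 over all. Hacd3 and Hsd17b4 also passed with dim probe sets included.

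The extremes of the remaining lists did not pass the rule. In the uptake and carrier list, the adipocyte carrier Fabp4 was highest at 1.06 over 3 probe sets, 2 of them higher, and Acbd3 was lowest at -0.67. In the activation and carnitine list, the carnitine transporter Slc22a5 was highest at 0.30 and the peroxisomal octanoyltransferase Crot lowest at -0.44. Mcat, of mitochondrial fatty acid synthesis, was the lowest of the synthesis list at -0.44. In the lipase and ketone list, Abhd12, a lysophospholipase, was highest at 1.08, with 14 of 19 probe sets higher, and passed at 1.07 with dim probe sets included, while the hormone-sensitive lipase Lipe was lowest at -0.31. Among 11 regulators 9 were below 0 (81.8%, beside 65.2% of all evaluated genes), with a median of -0.19, beside -0.11. The coactivator Ppargc1a was lowest at -0.74 (7.53 in KO and 7.96 in heterozygous cells, 12 of 12 bright probe sets lower). Over all 17 probe sets Ppargc1a was at -0.56, with 15 lower. The oxysterol receptor Nr1h3 was highest at 0.22, though at -0.24 over all its probe sets. Among the AgRP neuron markers, Mc3r was highest at 0.52 and Ghsr lowest at -0.60, and none passed the rule.

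**Figure D5:**
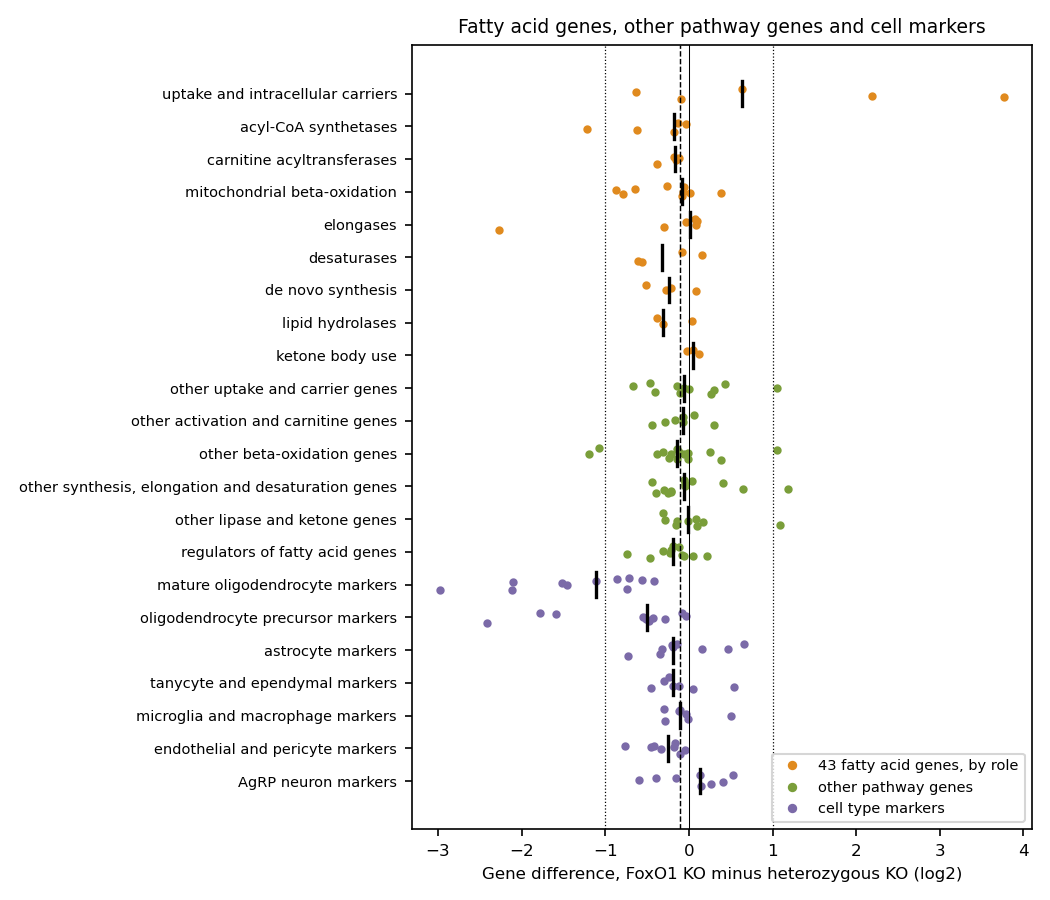
Difference of each evaluated gene (x axis, FoxO1 KO minus heterozygous KO, log2) in the role groups of the 43 genes (orange), the other lists of the pathway (green) and the cell type markers (purple), with list medians as black bars, the median over all genes of -0.11 dashed and 2-fold dotted. The bar of mature oligodendrocyte markers lies lowest, at -1.11, and that of the 5 uptake and carrier genes highest, at 0.64, though at 0.04 with dim probe sets included, where AgRP neuron markers had 0.11.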

How the data were processed

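Gene expression was measured in FACS-sorted AgRP neurons on 2 exon-level arrays, 1 per genotype, each assigned from its genotype label. The authors deposited 1 log2 value per probe set and array. Per the submitters' processing notes they used RMA (background correction, quantile normalisation and probe summary) and Partek; the log2 scale was taken from the values, which ran from 2.55 to 14.11 in KO and 2.53 to 14.13 in heterozygous cells. Quantile normalisation removes any difference in total RNA. For the array values, the notes give no version, genome build or annotation release.

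Of 1235936 probe sets, those with 1 symbol in the platform annotation named genes, and 910492 had none there. Floor, medians and the 2-fold rule are as stated in the results, and 16639 genes were evaluated, with a median of 10 bright probe sets. All 43 members, genes past the rule in each other list and its extremes were named. Members and lists were chosen with earlier results of these data known. Of 183 listed genes, 7 were found under an older symbol (RefSeq table) and 5 were not matched. The summary per gene was first run on simulated differences of known size. The number of arrays limits the precision. Alternatives changed the floor, the summary, the minimum of probe sets, the scaling, the call rule and the use of shared probe sets. Values were computed with Python 3.11.15, numpy 2.4.6, pandas 2.3.3, statsmodels 0.14.6 and matplotlib 3.10.9.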

Additional observations from a re-analysis of the deposited data

How the results depend on the processing

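Among the 43 genes, the counts of 2 higher and 2 lower changed with the choice of probe sets. They were 0 higher and 0 lower with no filter on dim probe sets, 0 higher and 1 lower with the floor on the brighter array, 1 higher and 2 lower under a 75th-percentile floor, and 1 higher and 1 lower with at least 5 probe sets. A 1.5-fold size gave 3 higher and 6 lower, and the mean over probe sets gave 2 higher and 3 lower. Over all evaluated genes, the counts of 188 and 186 became 338 and 329 with at least 1 probe set and 545 and 815 at 1.5-fold. The median over the 43 genes was -0.12, and -0.0057 with centring on the median gene, which adds 0.11 to every gene by construction. Of the 43 genes, 27 kept their sign under every alternative in which they were evaluated and 16 did not. Among the 4 genes past the rule, the difference ran from 0.04 to 3.88 for Cd36, from 1.75 to 2.30 for Dbi, from -1.22 to -0.93 for Acsl5 and from -3.12 to -0.66 for Elovl7. Cd36 had too few probe sets to be evaluated under a 75th-percentile floor or with at least 5, and Elovl7 with at least 5. No paired analysis was possible because there is 1 array per genotype. With 1 array each, the spread between mice is not known for any value here, and dim probe sets limit Cd36 and Elovl7.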

Other observations

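Probe sets of 1 gene disagreed more often in this list than over all genes. Of the 43 genes, 8 (18.6%) had bright probe sets at least 4-fold higher and others at least 4-fold lower, beside 5.90% of all evaluated genes; they were Acaca, Acly, Acsl3, Acsl6, Cpt1a, Crat, Fasn and Scd1. The list also had more bright probe sets per gene, with a median of 14 beside 10, and more probe sets leave more room for such extremes. Among the 8 genes, Acaca had 88 bright probe sets and Fasn 51. Acsl6, Crat and Scd1 had only 1 such probe set in each direction. The SD over probe sets had a median of 0.81 in the list and 0.68 over all evaluated genes. Counted by probe set, 122 of 725 were at least 2-fold lower (16.8%, beside 11.0% of all bright probe sets with 1 symbol) and 80 were at least 2-fold higher (11.0%, beside 9.24%). Such counts weigh genes with many probe sets more: of the 122, Acaca held 14, Fasn 13, Acsl5 10 and Acsl3 8. By gene, the median difference was -0.12 in the list and -0.11 over all evaluated genes. The arrays correlated at r = 0.669 over the levels of the 43 genes and at r = 0.868 over all evaluated genes. These are correlations across genes, and genes are not replicates. The 2 values of r are not directly comparable, since the levels spanned unlike ranges. In KO they ran from 6.32 to 10.30 in the list and from 5.17 to 13.13 over all evaluated genes. The value for the list also includes Cd36, at 8.59 in KO and 4.82 in heterozygous cells. These patterns were noticed after the values were seen, and no cause was tested.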
